A study of Mus musculus with 4 samples.

Results

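The end of oocyte growth was described by comparing GO2, the later of a pair of growing oocyte samples, with fully grown oocytes (FGOs, labelled as germinal vesicle stage). The comparison covered the genes with at least 1 RPKM (a read density corrected for exon length and library size) in GO2 or in FGOs, which were 10198 of 25587 genes in the deposited table. Of these, 9238 reached 1 RPKM in both libraries, 343 in GO2 alone and 617 in FGOs alone. All oocytes came from wild-type C57BL/6Babr mice of 5 to 20 days of age, and RNA depleted of ribosomal RNA was sequenced in 1 library each for non-growing oocytes (NGOs), GO1, GO2 and FGOs. GO1 and GO2 were prepared with the ScriptSeq kit and NGOs and FGOs by second strand synthesis with dUTP, so between GO2 and FGOs the stage and the library method cannot be told apart. The later stages came from older mice, so stage and age cannot be told apart either. A gene was therefore called a late rise or a late fall only where FGOs differed at least 4-fold from GO2 and at least 2-fold, in the same direction, from NGOs, which share the dUTP method. With 1 library per stage there was no replicate check and no test between stages, and the intervals given cover counting error alone. In bulk samples, fewer cells and less RNA per cell cannot be told apart.

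An oocyte grows for weeks while arrested in the prophase of meiosis, and during that time it transcribes and stores the RNAs that it will use after ovulation. Transcription falls silent as the chromatin of the fully grown oocyte condenses around the nucleolus. From then on messages are used or degraded without replacement, and the machinery of meiotic prophase, such as the synaptonemal complex that had joined homologous chromosomes, is no longer needed. The oocyte also prepares for maturation, in which MOS and cyclin B with CDK1 drive the meiotic divisions, and for fusion with sperm.

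Reads on genes numbered 58813318 for NGOs, 69586218 for GO1, 128495161 for GO2 and 65464623 for FGOs, as recovered from the RPKM values. The libraries were sequenced from both ends of each fragment, and the numbers recovered are above the uniquely mapped reads that the study states for them, so both mates of a pair may have been counted. The intervals treat every read as independent and would then be too narrow. With all counts halved, the intervals of the same late rises and falls still lay beyond 2-fold, at 26 of 26 and 15 of 15. The 4-fold rule, applied to the same values, makes this likely in advance. For genes at least 2-fold from both GO2 and NGOs, it was so at 170 of 221 rises and 71 of 102 falls. These intervals are for FGO over GO2, and none is given for FGO over NGO. A floor of 3 counts on a gene of 1 kb corresponded to 0.0124 RPKM in GO2 and 0.0251 RPKM in FGOs. The 10 oocyte markers examined (among them Zp3, Gdf9, Ddx4 and Nobox) were above 1 RPKM in every library, with a summed level of 4982 RPKM in GO2 and 4937 RPKM in FGOs. Summed over 13 granulosa markers the level was 6.85 RPKM for NGOs, 12.4 for GO1, 16.7 for GO2 and 19.6 for FGOs, and 10 of the 13 were higher in FGOs than in GO2. Foxl2, which defines granulosa cells, was at 0.0115 RPKM in GO2 and 0.0265 RPKM in FGOs, while Amh went from 0.0199 to 0.412 RPKM, Hsd17b1 from 0.124 to 0.656 RPKM and Cyp19a1 from 3.13 to 6.08 RPKM. The largest value among the 13 in FGOs was that of Nr5a2 (8.65 RPKM, and 11.4 RPKM in GO2). The part of granulosa cells in the results was not tested. Theca, stroma, immune and erythroid markers each summed to less than 1 RPKM in both GO2 and FGOs. The 4 endothelial markers summed to 11.2 RPKM in GO2 and 12.4 RPKM in FGOs, most of it from Pecam1, while Cdh5 was at 0 in both libraries.

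Most genes differed little in relative level. The scaling centres the ratios near 0, so a change in total RNA per oocyte would not be seen. After scaling, which moved FGO over GO2 by 0.11 on the log2 scale, the middle 90 % of genes lay between -0.98 and 1.21 log2 (FGO over GO2, RPKM plus 0.1), with a median of 0.00. FGOs were at least 4-fold higher than GO2 at 87 genes (0.853 % of those compared) and at least 4-fold lower at 101 genes (0.99 %). Between FGOs and NGOs, FGOs were at least 2-fold higher at 13.4 % and at least 2-fold lower at 8.43 % of the same genes. Both conditions were met by 26 late rises (0.255 %) and 15 late falls (0.147 %), so that 29.9 % of the 4-fold rises and 14.9 % of the 4-fold falls were shared by NGOs. At a 2-fold threshold against GO2, FGOs were higher at 829 genes (8.13 %) and lower at 474 genes (4.65 %), and 221 of these rises (2.17 % of all genes compared) and 102 of these falls (1 %) were shared by NGOs.

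**Figure D1:**
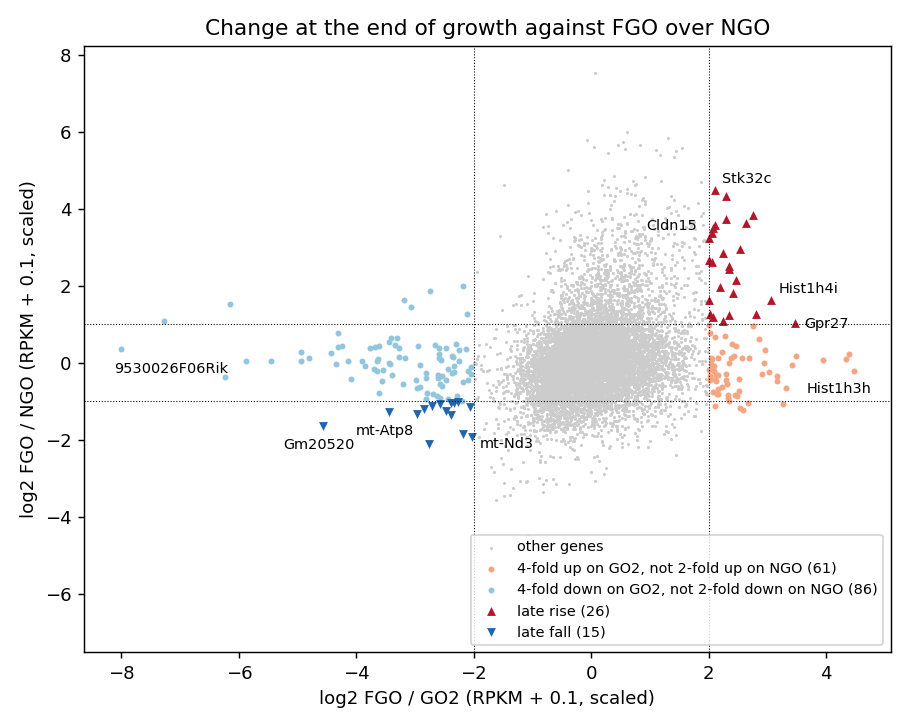
Each point is a gene, with the log2 ratio of FGOs to GO2 on the horizontal axis and of FGOs to NGOs on the vertical axis (RPKM plus 0.1, scaled); dotted lines mark 4-fold and 2-fold. The 26 late rises sit at the upper right and the 15 late falls at the lower left, while 61 rises and 86 falls past 4-fold lie between or beyond the horizontal lines because NGOs do not share them.

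The ratio of NGOs to GO1 sets the same methods against each other at the start of growth, in libraries that the ratio of FGOs to GO2 does not use. Across the 10198 genes the log2 ratios of FGO to GO2 and of NGO to GO1 had a Pearson correlation of 0.64 and a Spearman correlation of 0.60, as a description, since genes are not independent and the points share library method and base composition. Of the 188 genes past 4-fold between GO2 and FGOs, 184 had the same sign in NGO over GO1. NGOs were at least 2-fold above GO1 at 69 of the 87 rises and at least 2-fold below at 92 of the 101 falls, late genes included, beside 14.3 % and 15.7 % of all genes. Where NGOs are near FGOs and GO1 is near GO2, such agreement follows from the rule, so these counts are a description and support no cause.

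**Figure D2:**
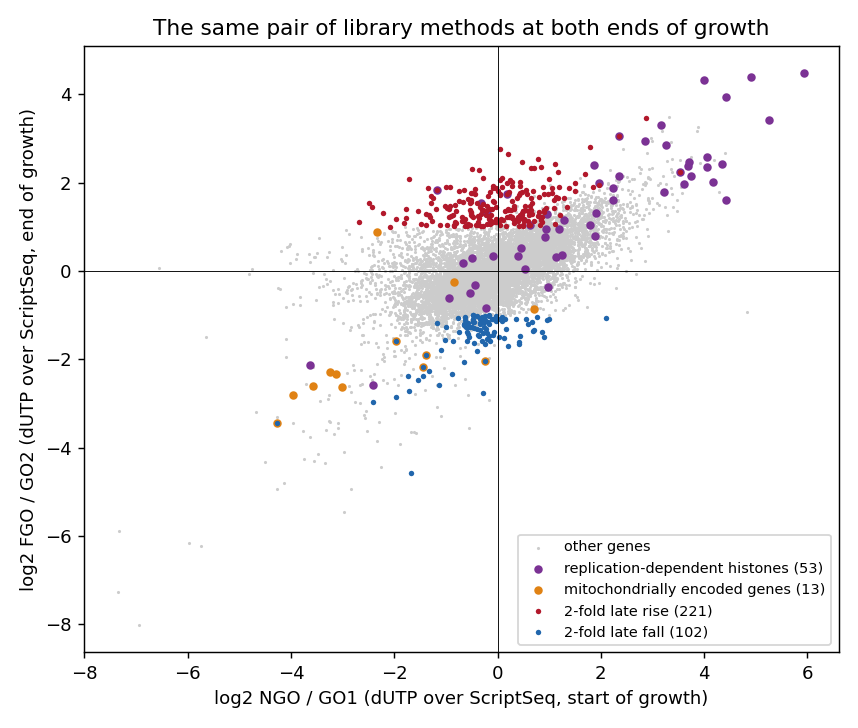
Each point is a gene, with log2 NGO over GO1 on the horizontal axis and log2 FGO over GO2 on the vertical axis, both dUTP over ScriptSeq (RPKM plus 0.1, scaled). The cloud rises from lower left to upper right, most replication-dependent histones lie at the upper right and mitochondrially encoded genes at the lower left, and the 2-fold late rises and falls are centred near 0 on the horizontal axis.

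Histone H3 genes led the rises that NGOs did not share. Hist1h3h, which encodes the replication-dependent histone H3, was at 296.7 RPKM in NGOs, at 4.19 in GO1, at 10.3 in GO2 and at 248.1 in FGOs. It was thus high in both dUTP libraries and low in both ScriptSeq libraries. Hist1h3f and Hist1h3b were likewise higher in both dUTP libraries than in both ScriptSeq libraries, at 60.1 and 2.95 RPKM in FGOs, 2.55 and 0.0401 RPKM in GO2, 1.47 and 0.0636 RPKM in GO1, and 52.5 and 2.82 RPKM in NGOs. The 53 replication-dependent histone genes compared have transcripts that end in a stem-loop instead of a poly(A) tail. Of these, 34 were at least 2-fold higher and 2 at least 2-fold lower in FGOs than in GO2 (8.13 % and 4.65 % of all genes were). Their median log2 ratio was 1.60 for FGO over GO2, 1.87 for NGO over GO1 and 0.02 for FGO over NGO. Both dUTP libraries were above both ScriptSeq libraries at 38 of the 53, a count without its share over all genes.

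Gene models without a functional name led the falls that NGOs did not share. The model 9530026F06Rik (chr1:61378432-61395904) was at 0.0101 RPKM in NGOs, at 12.02 in GO1, at 32.6 in GO2 and at 0.0375 in FGOs, the last from 4 counts. Gm16234 (chr10:14664220-14668318) was at 2.87, 142.5, 155.6 and 2.14 RPKM in the same order. AC152922.1 was at 0 in NGOs, 14.3 RPKM in GO1 and 29.7 RPKM in GO2, and FGOs held 1 count, which gives a log2 ratio of FGO to GO2 between -13.53 and -5.74 by counting error. All 3 were thus high in the ScriptSeq libraries alone. Of these 86 falls, 67.4 % were gene models named by number or clone, against 12.3 % of all genes compared, and 14.0 % were annotated as antisense, against 0.8 %. How the table was counted with respect to strand is not given in the sources used here, so reads of a gene and of its antisense partner may not be told apart.

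The late rises were at low levels in FGOs. The median of the 26 genes was 2.01 RPKM in FGOs, beside 6.09 RPKM for all genes compared, and 4 exceeded 10 RPKM. Genes could enter the comparison through FGOs alone, so a low level in GO2 is in part set by the filter. FGOs were the highest of the 4 libraries at all 26, and all were at least 2-fold above GO1 as well, a ratio that again crosses the method. By the rule FGOs already exceeded GO2 and NGOs, so the comparison with GO1 alone was not fixed. The same holds wherever FGOs are called the highest or lowest library at a late gene. In GO2 the fewest counts behind a late rise were 12. The counting interval of FGO over GO2 lay beyond 2-fold for all 26, which the 4-fold rule makes likely in advance. NGOs were at least 2-fold above GO1 at 8 of the 26 and less than 2-fold above it at 18. With a pseudocount of 0.5 in place of 0.1, which weighs most on scarce messages, 3 late rises and 5 late falls were left, and with 0.01 there were 40 late rises.

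Stk32c, a serine/threonine kinase at chr7:139103638-139213307 on GRCm38, was at 0.444 RPKM in NGOs, at 0.490 in GO1, at 2.47 in GO2 and at 11.8 in FGOs. The libraries of non-growing and early growing oocytes were alike and low, and each later library was higher. FGOs exceeded GO2 by 4.27-fold (log2 2.10) and NGOs by 22.4-fold, on the scale of RPKM plus 0.1. The counting interval of FGO over GO2, which is for the ratio of counts with nothing added, was 2.05 to 2.23 on the log2 scale. At scarce genes a log2 value can therefore lie outside its interval. Cldn15, a claudin of tight junctions (chr5:136966616-136975858), was at 0.485 RPKM in NGOs, at 0.390 in GO1, at 1.39 in GO2 and at 6.82 in FGOs. For both genes the ratio of NGO to GO1 was small, at -0.29 and 0.09 on the log2 scale.

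Other late rises were also higher in NGOs than in GO1. Gpr27, an orphan G protein-coupled receptor (chr6:99692679-99693818), was at 2.998 RPKM in NGOs, at 0.277 in GO1, at 0.418 in GO2 and at 6.10 in FGOs, which made it the largest late rise against GO2 (11.1-fold) and among the smallest against NGOs (2.06-fold). Both dUTP libraries were above both ScriptSeq libraries. Snai3, a zinc finger repressor of the Snail family, was at 3.98, 1.18, 2.76 and 12.3 RPKM in NGOs, GO1, GO2 and FGOs. Mzt2, a small protein of the gamma-tubulin complexes that nucleate microtubules, was at 1.57, 0.357, 1.197 and 6.28 RPKM in the same order. The log2 ratio of NGO to GO1 was 2.87 for Gpr27, 1.51 for Snai3 and 1.70 for Mzt2, and the part of the library method in their values was not tested.

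The histone H4 genes Hist1h4i and Hist1h4m met the rule, with NGO over GO1 at 2.36 and 3.54 on the log2 scale. Hist1h4i (chr13:22040816-22041352) was at 12.6 RPKM in NGOs, at 2.10 in GO1, at 4.14 in GO2 and at 38.1 in FGOs, and Hist1h4m at 13.2, 0.915, 5.31 and 27.5 RPKM. The H2A gene Hist1h2ah and the H2B gene Hist1h2bk, which lie 178 bp apart and reached the 2-fold threshold, had -1.17 and 0.19 for that ratio. Hist1h2bk was at 16.2 RPKM in NGOs, at 12.6 in GO1, at 32.4 in GO2 and at 117.5 in FGOs. These 4 genes were the late rises among the 53 histone genes at 2-fold, a share of 7.5 % beside 2.17 % of all genes.

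Tubulins supplied another late rise. Tuba3b, an alpha tubulin, was at 0.311 RPKM in NGOs, at 0.253 in GO1, at 0.817 in GO2 and at 4.04 in FGOs, and 4.18-fold higher in FGOs than in GO2. The near-identical copy Tuba3a, which may share reads with it, was at 13.2, 20.6, 37.2 and 85.3 RPKM, and the beta tubulin Tubb3 at 47.2, 29.3, 45.8 and 111.6 RPKM. Of the 31 tubulin, actin and cytoskeleton genes compared, these 3 were 2-fold late rises (2.17 % of all genes were) and Tmsb10 was a late fall, and the median of the list was 0.21 on the log2 scale beside 0.00 for all genes.

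Gene models made up 11 of the 26 late rises (42.3 %, beside 12.3 % of all genes compared). Long intergenic RNAs by annotation were 8 (30.8 %, beside 1.1 %). Gm15668 (chr1:67249200-67323609) was at 0.373 RPKM in NGOs, at 0.268 in GO1, at 0.758 in GO2 and at 5.66 in FGOs. Gm12670 and Gm14216 were at 1.51 and 1.36 RPKM in FGOs and at 0.122 and 0.133 RPKM in GO2, from 17 and 22 counts. Neither had a read in GO1. Inha, the inhibin alpha subunit and 1 of the granulosa markers, was at 0.638, 0.230, 0.258 and 1.54 RPKM in NGOs, GO1, GO2 and FGOs. It was the granulosa marker among the late rises, and the part of granulosa cells in its value was not tested.

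The other late rises lay between 1.01 RPKM (Gm20685) and 5.11 RPKM (AC167973.1) in FGOs. Cenpb, which binds the satellite repeats of centromeres, was at 0.551, 0.223, 0.556 and 3.52 RPKM in NGOs, GO1, GO2 and FGOs. Ntn1, the guidance factor netrin, was at 0.0619, 0.0176, 0.246 and 1.41 RPKM, and Batf3, a leucine zipper transcription factor, at 0.152, 0.0443, 0.146 and 1.24 RPKM. Acot1, a thioesterase of acyl-CoA, Gal3st2, a sulfotransferase, and Cd1d1 reached 1.41, 1.61 and 1.11 RPKM in FGOs from 0.101, 0.186 and 0.110 RPKM in GO2. The rest were the gene models Gm13200, Gm12114, Gm13715, Gm6086, A630095E13Rik and 5830454E08Rik.

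**Figure D3:**
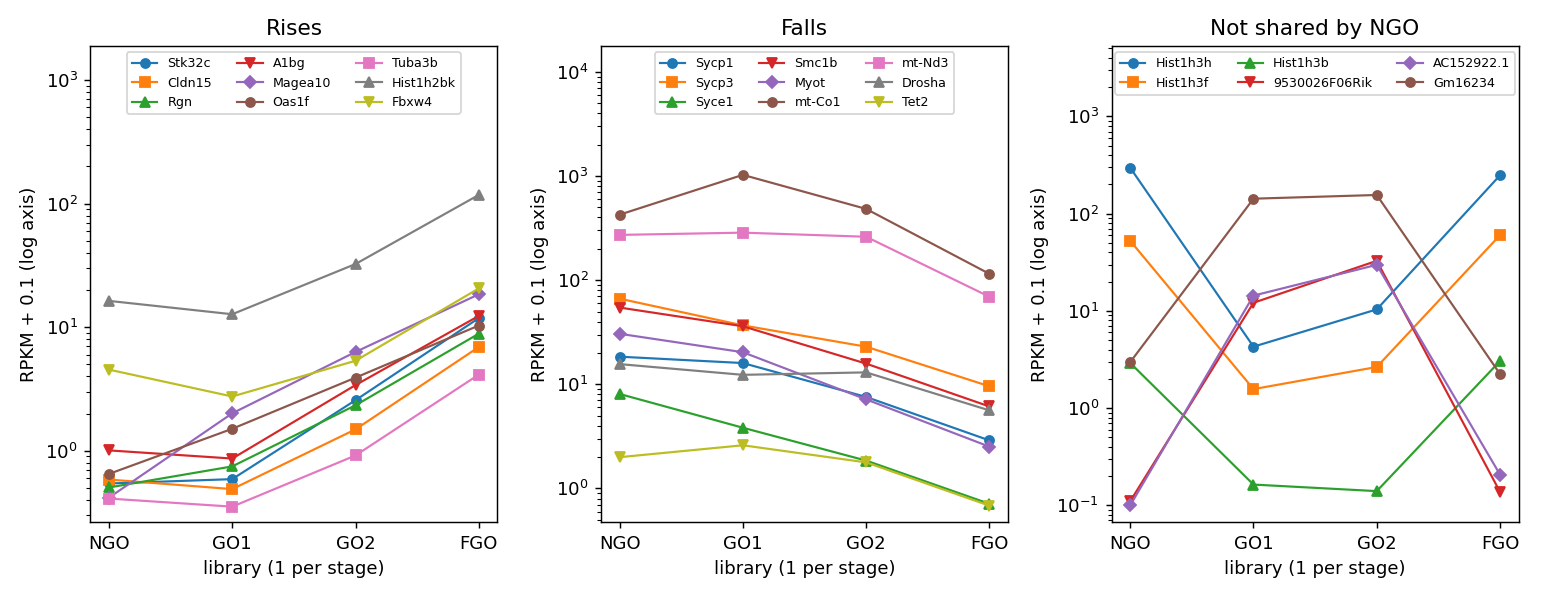
RPKM plus 0.1 on log axes in NGOs, GO1, GO2 and FGOs, 1 library each, for 9 genes that rise and 9 that fall at the end of growth and for 6 genes whose change NGOs do not share. Stk32c climbs to 11.8 RPKM in FGOs and Smc1b drops to 6.02 RPKM, whereas Hist1h3h is high at both ends (296.7 and 248.1 RPKM) and Gm16234 is high in the middle alone.

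At the 2-fold threshold most late rises had already been higher in GO2 than in GO1. This was so for 212 of the 221 genes, within the ScriptSeq method, and 80 of them differed at least 2-fold. The same holds for 52.7 % and 2.42 % of all genes compared, with the reservation that GO2 enters both ratios. In 82 genes the level climbed at every step from NGOs over GO1 and GO2 to FGOs, beside 11.3 % of all genes. For late rises the rule already sets the last step and FGOs above NGOs, so these shares are not comparable. The first and last steps also cross the library method. NGOs were less than 2-fold above GO1 at 198 of the 221 (89.6 %), a share close to the 85.7 % of all genes.

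Several of these genes went from under 1 RPKM in NGOs to more than 5 RPKM in FGOs, and they were chosen after their values were seen. Magea10, a member of the melanoma antigen family, was at 0.318 RPKM in NGOs, at 1.91 in GO1, at 6.21 in GO2 and at 18.4 in FGOs. Rgn, the calcium-binding protein regucalcin, was at 0.405, 0.648, 2.24 and 8.77 RPKM. A1bg, a secreted glycoprotein of the immunoglobulin superfamily, was at 0.908, 0.766, 3.30 and 12.2 RPKM. In each the FGO library stood above the other 3, which the rule sets for GO2 and NGOs. FGOs exceeded NGOs by 45.5-fold for Magea10, 18.1-fold for Rgn and 12.6-fold for A1bg.

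Transporters and receptors were also among these rises. Slc15a4, a lysosomal transporter of histidine and peptides, was at 7.88 RPKM in NGOs, at 4.50 in GO1, at 8.86 in GO2 and at 26.9 in FGOs. Htr5a, a serotonin receptor, was at 0.308, 0.359, 1.99 and 6.08 RPKM, and Bdkrb1, a bradykinin receptor, at 2.31, 0.984, 1.38 and 5.25 RPKM. Fbxw4, an F-box protein of ubiquitin ligases, was at 4.44, 2.65, 5.25 and 20.5 RPKM. Fbxw4 and Slc15a4 were lowest in GO1 and highest in FGOs, and at both genes NGOs and GO2 were close to each other.

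The abundant late rises were few, with 6 of the 221 above 100 RPKM in FGOs. Gm97 was at 47.9 RPKM in NGOs, at 149.1 in GO1, at 150.4 in GO2 and at 342.3 in FGOs, the highest level among them. Fam46b, a poly(A) polymerase family member, was at 75.9, 31.5, 51.5 and 168.8 RPKM, and Siah2, a ubiquitin ligase, at 53.3, 41.5, 45.2 and 114.9 RPKM. The FGO library was clear of the other 3 at each of these genes, which the rule sets for GO2 and NGOs.

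Oligoadenylate synthetases, enzymes known from the response to double-stranded RNA, were higher in FGOs than in GO2 at all 8 genes compared. The list had a median of 0.76 on the log2 scale, beside 0.00 for all genes, and 3 of the 8 were 2-fold late rises, beside 2.17 % of all genes. Its median was 0.84 for FGO over NGO and 0.33 for NGO over GO1. The part of the library method in these values was not tested. Oas1f was at 0.550 RPKM in NGOs, at 1.41 in GO1, at 3.81 in GO2 and at 10.2 in FGOs. Oas1h, the most abundant of these 3, was at 92.1, 52.9, 83.9 and 187.3 RPKM, and Oas3 at 0.332, 0.177, 0.326 and 1.01 RPKM. Oas1h lay close to the 2-fold threshold, at log2 1.05 over GO2 and 1.07 over NGOs, with NGO over GO1 at 0.63. The 3 genes were neighbours among the late rises of chromosome 5, with at most 69706 bp between them. The most abundant member, Oas1e, was at 445.8, 388.1, 461.7 and 652.1 RPKM and stayed under 2-fold.

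The Tcl1 family, coactivators of the AKT kinase, had 7 genes with a median of 0.61 on the log2 scale, 5 of them higher in FGOs. Tcl1b1 was at 38.1 RPKM in NGOs, at 24.2 in GO1, at 41.3 in GO2 and at 92.7 in FGOs, and its neighbour Tcl1b2 at 31.0, 15.5, 27.3 and 60.7 RPKM. Both were 2-fold late rises (2 of 7, beside 2.17 % of all genes) and the remaining 5 were not. Both lay close to the threshold against GO2, at log2 1.05 for Tcl1b1 and 1.04 for Tcl1b2. Against NGOs they were at 1.32 and 1.01, and NGO over GO1 was 0.49 and 0.83. The part of the library method in these values was not tested. The 300 bases around their start sites, from 250 bases before to 50 after, are shown because these neighbours moved together (chr12:105159454-105159753 and chr12:105146769-105147068, plus strand, RefSeq sequence on GRCm38.p6). Capitals mark their longest shared run of 56 bases. The start site of Tcl1b2 lies 1005 bases from the start of the gene in the deposited table.
Tcl1b1: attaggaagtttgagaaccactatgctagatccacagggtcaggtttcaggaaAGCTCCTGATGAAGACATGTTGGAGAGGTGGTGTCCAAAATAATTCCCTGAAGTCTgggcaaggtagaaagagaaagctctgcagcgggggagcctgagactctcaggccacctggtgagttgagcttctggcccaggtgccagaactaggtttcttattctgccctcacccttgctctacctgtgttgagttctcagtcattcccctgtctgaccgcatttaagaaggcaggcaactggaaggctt
Tcl1b2: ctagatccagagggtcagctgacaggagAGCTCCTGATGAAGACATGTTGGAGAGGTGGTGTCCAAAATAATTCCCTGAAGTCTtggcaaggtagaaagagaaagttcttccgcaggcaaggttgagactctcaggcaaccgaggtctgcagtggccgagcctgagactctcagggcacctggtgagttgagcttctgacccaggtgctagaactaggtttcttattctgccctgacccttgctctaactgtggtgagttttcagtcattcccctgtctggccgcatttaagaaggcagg

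Folr4, known as Juno, the receptor of the egg for the sperm protein IZUMO1, was at 10.7 RPKM in NGOs, at 10.7 in GO1, at 15.6 in GO2 and at 38.0 in FGOs. It was the late rise among 12 genes of sperm fusion and egg activation (8.3 %, beside 2.17 % of all genes). The list had a median of 0.08 on the log2 scale. Cast, the calpain inhibitor calpastatin, was the late fall in this list (8.3 %, beside 1 % of all genes), at 16.2, 18.9, 14.1 and 7.47 RPKM. FGOs were therefore the highest library for Folr4 and the lowest for Cast. The fall of Cast drops below 2-fold without scaling, at -0.91 on the log2 scale.

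NGOs were at least 2-fold below GO1 at 11 of the 15 late falls, which leaves 4 without such a difference between the methods at the start of growth. Mitochondrially encoded genes were the most abundant of the late falls, and they code for subunits of the respiratory chain and the ATP synthase. mt-Atp8 was at 105.3 RPKM in NGOs, at 1821 in GO1, at 429.3 in GO2 and at 42.4 in FGOs, 10.9-fold lower in FGOs than in GO2 and 2.41-fold lower than in NGOs. mt-Co1 was at 425.4, 1026.5, 483.3 and 114.9 RPKM, and mt-Nd3 at 272.0, 285.9, 261.1 and 69.2 RPKM. FGOs were the lowest library for all 3, and GO1 was the highest. NGO over GO1 was -4.28 on the log2 scale for mt-Atp8, -1.44 for mt-Co1 and -0.24 for mt-Nd3, so the ratio between the methods differed widely within the list.

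Over all 13 mitochondrially encoded genes the summed level was 2397 RPKM for NGOs, 6155 for GO1, 2478 for GO2 and 740.9 for FGOs. At 12 of the 13 FGOs were below GO2, at 10 by at least 2-fold, and 5 were 2-fold late falls (38.5 %, beside 1 % of all genes). The median log2 ratio was -2.18 for FGO over GO2, -0.87 for FGO over NGO, -1.25 for GO2 over GO1 and -2.33 for NGO over GO1. All 13 were lower in GO2 than in GO1, within the ScriptSeq method, and 12 of the 13 were lower in FGOs than in NGOs, within the dUTP method. Several of these genes lie end to end or overlap, and reads from copies of mitochondrial sequence in the nuclear genome may be assigned to them.

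Ribosomal protein genes, Tmsb10 and Gapdh were further late falls. Tmsb10, a small protein that binds actin monomers, was at 32.3 RPKM in NGOs, at 96.0 in GO1, at 59.5 in GO2 and at 12.2 in FGOs. Rpl29 was at 2.49, 5.68, 5.44 and 1.15 RPKM, and Rpl10 at 1.46, 3.69, 3.44 and 0.631 RPKM. Gapdh, the glycolytic enzyme, was at 0.325, 1.15, 1.05 and 0.0891 RPKM, a low level for an abundant enzyme. In all 4 genes FGOs were lowest and both ScriptSeq libraries highest, with NGO over GO1 between -1.74 and -1.33 on the log2 scale. Each belongs to a family with many processed copies in the genome, and each multiply mapping read was placed at 1 site by the authors, so the split between a gene and its copies is uncertain.

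The pseudogenes Rpl23a-ps1 and Gm12033 were late falls as well, at 6.29 and 27.0 RPKM in GO2 and 1.05 and 5.16 RPKM in FGOs, and the pseudogene Gm10123 dropped from 1.33 to 0.114 RPKM. Among the 79 cytoplasmic ribosomal protein genes compared, 9 were at least 2-fold higher and 20 at least 2-fold lower in FGOs than in GO2 (8.13 % and 4.65 % of all genes were), and the median was -0.05 on the log2 scale. The late falls at 2-fold were 7 (8.9 %, beside 1 % of all genes), among them Rps6, Rpl29, Rpl23a, Rps23, Rpl36 and Rpl10, and none of the 79 was a late rise. FGOs were below NGOs at 72 of the 79, with a median log2 ratio of -0.71 beside 0.03 for all genes. Rps23, the most abundant of the 7, was at 61.2 RPKM in NGOs, at 80.9 in GO1, at 30.6 in GO2 and at 12.3 in FGOs.

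Further late falls were scarce messages. Cisd3, an iron-sulfur protein of mitochondria, was at 2.12, 2.98, 3.66 and 0.873 RPKM in NGOs, GO1, GO2 and FGOs. Gm20520 was at 0.353, 1.18 and 3.03 RPKM in NGOs, GO1 and GO2, and FGOs held 3 counts, which gives a log2 ratio of FGO to GO2 between -8.55 and -4.71 by counting error. Vmn1r65, of a vomeronasal receptor family, went from 3.48 to 0.396 RPKM between GO2 and FGOs and AC225640.2 from 2.12 to 0.373 RPKM.

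At 4 genes of meiotic prophase the RPKM was lower in each library than in the one before it. The synaptonemal complex protein gene Sycp3 was at 66.3 RPKM in NGOs, at 36.7 in GO1, at 22.9 in GO2 and at 9.48 in FGOs. Sycp1, which forms the transverse filaments of that complex, was at 18.3, 15.9, 7.46 and 2.79 RPKM, and Syce1, a protein of its central element, at 7.98, 3.73, 1.75 and 0.612 RPKM. Smc1b, the meiotic cohesin subunit that holds sister chromatids together, was at 54.5, 36.0, 15.7 and 6.02 RPKM. FGOs were between 2.59-fold (Sycp3) and 2.82-fold (Sycp1) below GO2 and between 6.19-fold (Sycp1) and 11.03-fold (Syce1) below NGOs. The scaled log2 ratio of NGO to GO1 was 0.03 for Sycp1, 0.43 for Smc1b, 0.68 for Sycp3 and 0.91 for Syce1. The part of the library method in these values was not tested.

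These 4 genes did not stand for their whole lists. Among 9 genes of the synaptonemal complex and HORMAD group, 3 were 2-fold late falls (1 % of all genes were), 6 were lower in FGOs than in GO2 and the median was -0.18 on the log2 scale. Among 17 genes of meiotic recombination, Smc1b was the late fall, 15 were lower in FGOs than in GO2 and the median was -0.47, beside 0.00 for all genes. Among all 102 late falls at 2-fold, 93 were also lower in GO2 than in GO1, and in 29 the level was lower at every step from NGOs to FGOs. The same holds for 47.3 % and 7.87 % of all genes, and GO2 again enters both ratios. The rule also sets the last step for the late falls, so the shares at every step are not comparable.

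The start sites of the 4 prophase genes are shown because these genes had the same order of levels. Each is 300 bases of RefSeq sequence on GRCm38.p6, written 5′ to 3′ along the gene, from 250 bases before to 50 after the start: Sycp1 at chr3:102936051-102936350 (minus strand), Sycp3 at chr10:88459337-88459636 (plus strand), Syce1 at chr7:140787805-140788104 (minus strand) and Smc1b at chr15:85131908-85132207 (minus strand). Capitals mark the letters CACGTG (an E-box), TCCCGC (the core of E2F sites) and CTCGCGAG, searched on both strands.
Sycp1: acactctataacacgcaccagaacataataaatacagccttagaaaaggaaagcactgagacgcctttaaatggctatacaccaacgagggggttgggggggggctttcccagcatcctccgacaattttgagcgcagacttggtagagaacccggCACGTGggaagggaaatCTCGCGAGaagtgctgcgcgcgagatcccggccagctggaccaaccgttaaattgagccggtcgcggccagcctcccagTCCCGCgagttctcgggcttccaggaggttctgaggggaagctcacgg
Sycp3: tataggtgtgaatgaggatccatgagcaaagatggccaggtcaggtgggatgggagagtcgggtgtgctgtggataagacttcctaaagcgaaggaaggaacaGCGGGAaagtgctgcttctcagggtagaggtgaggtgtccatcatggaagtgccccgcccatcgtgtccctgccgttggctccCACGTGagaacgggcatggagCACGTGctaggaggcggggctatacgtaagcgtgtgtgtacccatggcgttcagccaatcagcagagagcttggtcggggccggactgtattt
Syce1: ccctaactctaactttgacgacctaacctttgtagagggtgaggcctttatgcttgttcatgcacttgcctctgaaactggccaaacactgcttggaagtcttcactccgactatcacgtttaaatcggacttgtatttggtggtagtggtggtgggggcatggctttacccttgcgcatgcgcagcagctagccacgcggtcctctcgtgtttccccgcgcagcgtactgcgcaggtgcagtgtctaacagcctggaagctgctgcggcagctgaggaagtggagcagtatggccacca
Smc1b: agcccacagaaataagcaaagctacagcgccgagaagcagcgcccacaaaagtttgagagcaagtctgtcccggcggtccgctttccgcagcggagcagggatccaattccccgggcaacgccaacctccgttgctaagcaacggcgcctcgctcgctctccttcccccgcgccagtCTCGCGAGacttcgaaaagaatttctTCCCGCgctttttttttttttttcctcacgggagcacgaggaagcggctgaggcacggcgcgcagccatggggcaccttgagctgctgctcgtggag

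CACGTG occurred in the windows of Sycp1 and Sycp3, in 10.8 % of the 7064 windows matched to protein-coding genes compared here, and in 7.15 % of all 32851 RefSeq promoter windows of the same length. TCCCGC occurred in those of Sycp1, Sycp3 and Smc1b, in 37.6 % of the windows of genes compared and in 20 % of all windows. CTCGCGAG occurred in those of Sycp1 and Smc1b, in 2.31 % of the windows of genes compared and in 0.919 % of all windows. Syce1 held none of the 3. These matches are descriptions of letters and not of sites. A comparison of promoter composition between the late genes and all genes was void, since a window was matched for only 73.4 % of the protein-coding late rises and 76.3 % of the late falls at 2-fold.

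Other regulators of RNA and chromatin were among the late falls at 2-fold. Drosha, the nuclease that opens the processing of microRNAs, was at 15.5 RPKM in NGOs, at 12.2 in GO1, at 12.9 in GO2 and at 5.52 in FGOs. Ddx6, a helicase of stored and decaying messenger RNA, was at 22.1, 27.0, 18.9 and 8.25 RPKM, and the translational regulator Cpeb2 at 1.34, 2.79, 1.07 and 0.464 RPKM. Tet2, which oxidises methylcytosine, was at 1.90, 2.50, 1.68 and 0.583 RPKM. FGOs were the lowest library for all 4 genes. Ddx6 and Cpeb2 were the late falls among 35 genes of maternal mRNA storage and decay (5.7 %, beside 1 % of all genes). The median of these 35 genes was -0.28 on the log2 scale. Tet2 was the late fall among 15 genes of DNA methylation (6.7 %), with a median of -0.18. Drosha was the late fall among 20 genes of piRNA and small RNA (5.0 %), with a median of -0.28. For Cpeb2 the log2 ratio was -1.17 for FGO over GO2 and -1.18 for NGO over GO1. With a pseudocount of 0.5 its FGO over GO2 was -0.82, under 2-fold. The part of the library method in these values was not tested.

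Myot, a protein of muscle Z-discs, was at 30.5 RPKM in NGOs, at 20.2 in GO1, at 7.06 in GO2 and at 2.42 in FGOs. Hspa8, a constitutive chaperone, was at 21.7, 32.4, 21.7 and 8.96 RPKM. Larp1b, an RNA-binding protein of the La family, was at 30.7, 33.4, 26.6 and 10.8 RPKM, and the elongation factor Ell2 at 15.8, 20.5, 13.0 and 5.74 RPKM. Myot fell at each step, whereas the other 3 were highest in GO1 and lowest in FGOs.

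The next 7 genes, of growth and maturation, differed by less than 2-fold between GO2 and FGOs. Gdf9, an oocyte growth factor that acts on granulosa cells, was at 1009 RPKM in NGOs, at 764.9 in GO1, at 797.6 in GO2 and at 974.3 in FGOs, and Bmp15 at 131.1, 329.3, 416.3 and 414.0 RPKM. Zp3, of the egg coat, was at 1772, 615.9, 723.0 and 819.8 RPKM. Their log2 ratios of FGO to GO2 were 0.18, -0.12 and 0.07. The receptor gene Kit had a log2 ratio of -0.28, the methyltransferase gene Dnmt3a of -0.30, and Ccnb1 and Cdk1, the cyclin B and kinase of M-phase, of 0.02 and 0.42. These ratios cross the library method. Within dUTP the log2 ratio of FGO to NGO was -1.07 for Zp3, 1.37 for Ccnb1 and 1.70 for Bmp15. The 7 genes of the growth factor and gap junction list had a median of 0.49 for FGO over GO2, with 2 at least 2-fold higher.

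Larger differences were seen at Mos, Dnmt3l and Sohlh1. Mos, the kinase that holds the egg in metaphase, was at 128.5 RPKM in NGOs, at 53.9 in GO1, at 81.5 in GO2 and at 234.0 in FGOs. FGOs were 2.66-fold above GO2 but 1.87-fold above NGOs, so the gene did not meet the 2-fold rule against NGOs. Dnmt3l, the cofactor of de novo DNA methylation, was at 3.25, 8.48, 14.5 and 28.3 RPKM, climbing at every step, with FGOs 1.81-fold above GO2. Sohlh1, a transcription factor of early follicles, was at 78.0, 2.35, 1.09 and 0.577 RPKM, and most of its decline came before GO2.

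Over the 42 functional lists with at least 1 gene compared, 38 had a median within 0.5 of 0 on the log2 scale and 37 had no late rise or late fall at 4-fold. At 2-fold, 6 lists held a late rise and 13 a late fall, and 25 held neither. The transcription factors of the oocyte (14 genes), the subcortical maternal complex (7), the NLRP family (12) and the Obox family (3) had medians between -0.15 and -0.07 and no late gene. The proteasome (34 genes), translation factors (62), nuclear pore (41) and cholesterol genes (18) had medians between -0.09 and -0.01 and no late gene either. The 82 nuclear subunits of oxidative phosphorylation had a median of 0.24, with 15 genes at least 2-fold higher and 7 at least 2-fold lower (8.13 % and 4.65 % of all genes were), and Ndufa3 and Ndufa12 as late falls. These late falls were 2.4 % of the list, beside 1 % of all genes. Within the dUTP method the list ran the other way, with 73 of the 82 genes lower in FGOs. Its median of FGO over NGO was -0.65, beside 0.03 for all genes, and that of NGO over GO1 was 0.83.

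**Figure D4:**
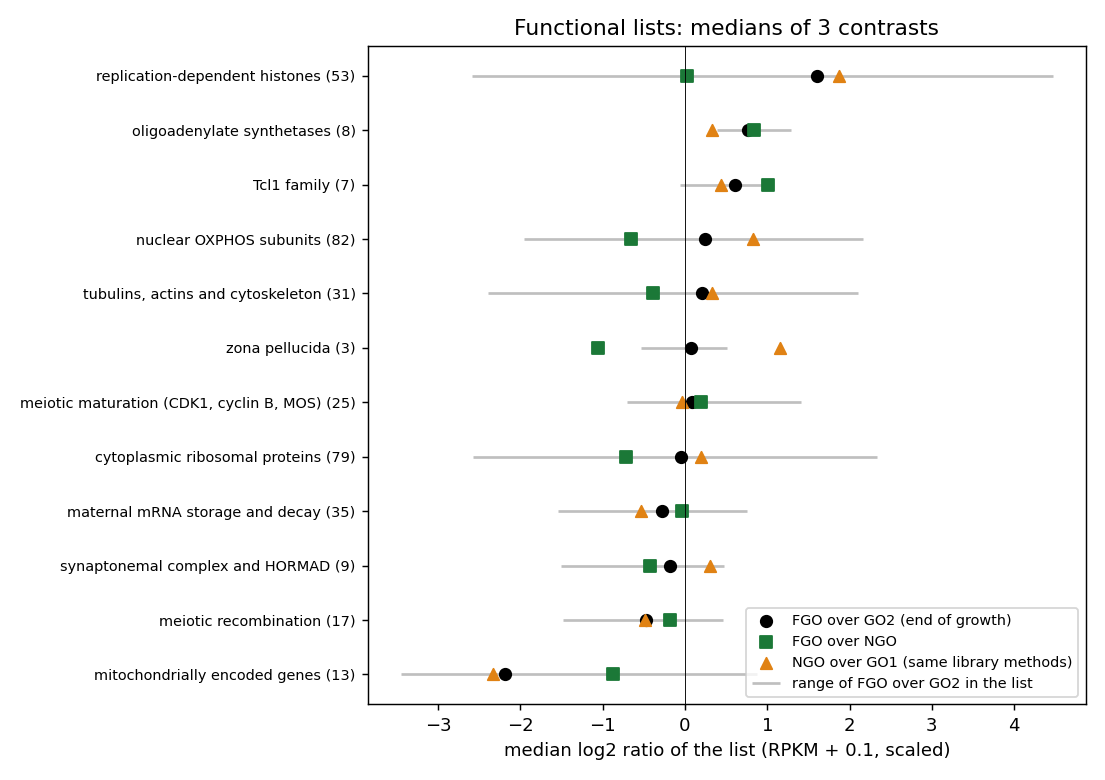
Medians of 12 functional lists (number of genes in brackets) for FGO over GO2, FGO over NGO and NGO over GO1 in log2 of RPKM plus 0.1, with grey lines for the range of FGO over GO2 in the list. The medians of histones (1.60 and 1.87) and mitochondrially encoded genes (-2.18 and -2.33) are alike for FGO over GO2 and NGO over GO1, while oligoadenylate synthetases and the Tcl1 family lie above 0 for FGO over NGO too.

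Base composition moved with the comparison. The GC content of the longest GENCODE transcript, known for 9165 of the 10198 genes, correlated across genes with log2 FGO over GO2 (Pearson 0.44, Spearman 0.48) and with NGO over GO1 (0.49 and 0.51), but less with FGO over NGO (-0.08 and -0.08). In 10 groups of equal size by GC, the median of FGO over GO2 went from -0.38 in the lowest to 0.65 in the highest group, and that of FGO over NGO from 0.07 to -0.03. Of all 2-fold rises, 275 were in the highest GC group and 13 in the lowest, whereas of the 2-fold late rises 33 were in the highest and 11 in the lowest. The median GC content was 51.7 % for the late rises at 2-fold, 46.0 % for the late falls and 49.1 % for all genes. The part of GC content in the single values was not tested.

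**Figure D5:**
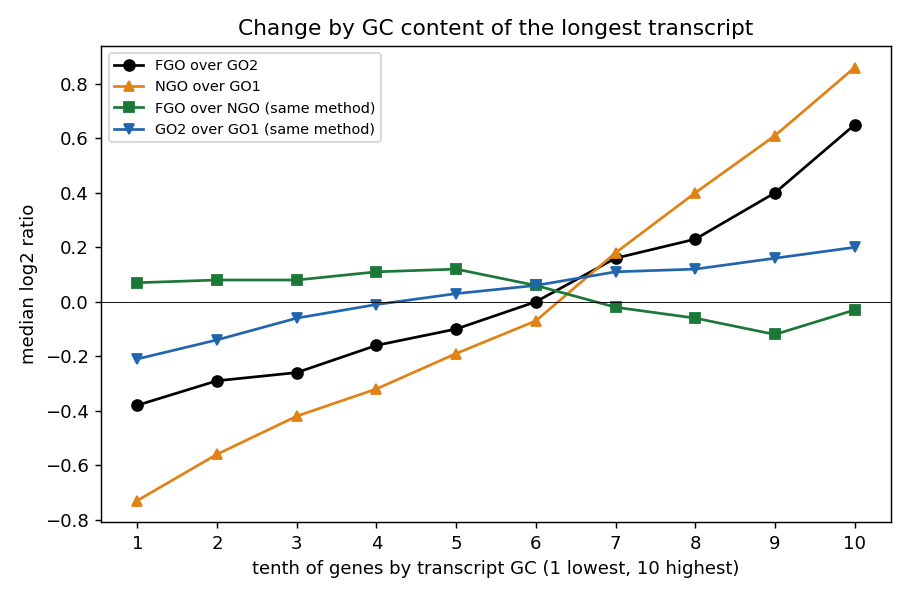
Median log2 ratio (vertical axis) in 10 equal groups of genes ordered by transcript GC content (horizontal axis), for 4 pairs of libraries. FGO over GO2 and NGO over GO1, which cross the methods, climb from -0.38 to 0.65 and from -0.73 to 0.86; GO2 over GO1 climbs from -0.21 to 0.20 and FGO over NGO stays between -0.12 and 0.12.

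Late genes also had shorter inferred exon lengths than most. The lengths were inferred together with the counts from the RPKM values. Where no annotated length gave whole counts, the smallest length that did was taken (9745 genes of the deposited table). Such a length can be too short. The median inferred length was 934 bases for the 26 late rises and 833 bases for the 15 late falls, against 3422 bases for all genes compared. It was 1940 and 2231 bases for the late rises and falls at 2-fold. The genes past 4-fold that NGOs did not share were as short, with medians of 929 bases for the rises and 858 bases for the falls. A short inferred length was thus seen at the genes past 4-fold whether or not NGOs shared the difference. The part of the inference in these lengths was not tested.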

How the data were processed

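RNA-Seq of NGOs, GO1, GO2 and FGOs was analysed, with 1 library per stage. The authors trimmed reads with Trim Galore 0.2.8 and mapped them to GRCm38 with TopHat2 2.0.9, placing each multiply mapping read once. The deposited values are RPKM for 25587 genes. The program, annotation and strand setting behind them are not given in the sources used here. Counts were recovered from the steps in the values, of which at least 98.4 % came out whole (within 0.05 counts) for genes with 1 exon. The counts serve for depth and counting intervals (95 %, Clopper-Pearson for ratios) only.

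Log2 ratios of RPKM plus 0.1 were scaled by a trimmed mean (30 % of the ratios and 5 % of the levels trimmed at each end), in Python (pandas 2.3.3, numpy 2.4.6, scipy 1.17.1). Both steps were run on simulated data. Recovered counts were exact for 92.6 % of 1841 genes. Of 100 genes raised and 100 lowered 8-fold, 100 and 96 were called at the 4-fold rule, without a false call. All libraries of that simulation had the same levels otherwise and no difference of method, so it could not test the rule against NGOs. No test was run, since no stage has a second library.

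The genes compared, the functional lists and the markers were chosen with earlier results of these data known. Named genes were the late rises and late falls of at least 5 RPKM (up to 15 in each direction, of which 7 and 6 qualified), the 3 largest gene models in each direction, every late gene in a list, the 3 largest changes that NGOs do not share, and 10 genes of growth and maturation. The other late genes named, and all those at 2-fold, were chosen after their values were seen. Sequences are RefSeq windows of GRCm38.p6, matched by symbol or older symbol. 43 lists were examined, of which the structural RNA genes had no gene compared. A few genes that met the rules are not reported here.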

Additional observations from a re-analysis of the deposited data

How the results depend on the processing

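With 1 library per stage no library could be left out and no paired analysis was possible because no stage has replicates. Neither no scaling nor scaling by the median changed the 4-fold counts by more than 1.5 times. The counts depended most on the pseudocount and the thresholds. The late rises (26) and late falls (15) became 3 and 5 with a pseudocount of 0.5, where FGOs were 4-fold higher at 42 and lower at 57 genes, and the rises became 40 with 0.01. With a floor of 5 RPKM there were 9 late rises and 7 late falls among 53 genes higher and 35 lower, and with no floor 188 genes were lower. At 2-fold there were 221 and 102 late genes of 829 and 474 past the threshold, and at 8-fold 2 and 2 of 13 and 43. Requiring any difference from NGOs gave 48 and 56, and 4-fold gave 16 and 1. Without gene models, histones and mitochondrial genes, there were 13 and 8 of 42 and 29. In alternatives chosen after the data were seen, with NGO over GO1 under 2-fold in the same direction, the late falls were 4, and at 2-fold the late rises were 198 and the late falls 86. Fewer late genes under a larger pseudocount, a floor or a stricter rule follow from the construction of the alternative. No list median crossed 2-fold in 84 alternatives. Of 255 for named genes, 20 crossed the gene's threshold and none turned direction, and Stk32c, Cldn15, Snai3 and Mzt2 lay at 1.93, 1.84, 1.86 and 1.89 on the log2 scale with a pseudocount of 0.5. Genes under about 1 RPKM are the ones that depth limits.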

Other observations

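Late genes at 2-fold included neighbours that moved the same way, with 16 neighbouring pairs of late rises and 5 of late falls at most 200 kb apart. The latter 5 included 4 on the mitochondrial genome. The share of such pairs over all genes is not given, so the counts are a description. The pairs named here were noticed after their values were seen. The pair Cd1d2 and Cd1d1, antigen-presenting proteins of the CD1 family, lies 6301 bp apart on chromosome 3, and Cd1d1 was at 0.2498 RPKM in NGOs, at 0.0430 in GO1, at 0.110 in GO2 and at 1.11 in FGOs. The olfactory receptor genes Olfr288 and Olfr283 lie 182554 bp apart on chromosome 15, and Olfr288 was at 0.0317, 0.301, 1.76 and 5.19 RPKM. Each pair belongs to a gene family, so reads may be split between related copies. How alike the sequences are was not tested.

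Regulators named for the germ line or for hormones were among the 2-fold late rises. Nanos2, an RNA-binding protein of male germ cells, was at 6.51 RPKM in NGOs, at 4.96 in GO1, at 8.21 in GO2 and at 20.8 in FGOs. Esr2, the beta oestrogen receptor, was at 2.24, 4.38, 6.59 and 14.8 RPKM, climbing at every step, and Nr1d1, a nuclear receptor of the circadian clock, at 1.83, 1.59, 2.39 and 5.78 RPKM. Among the falls, Hmga2, a chromatin protein of proliferating cells, was at 5.85, 11.2, 6.21 and 1.88 RPKM, and Maged1, of the melanoma antigen family, at 49.8, 10.2, 4.13 and 2.08 RPKM. Magea10, of the same family, moved the opposite way.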
